A study of Mus musculus with 4 samples.

Results

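The chemokines and chemokine receptors of mouse joint tissue were followed as a gene family through 4 RNA-seq libraries. The family was taken by symbol, as the protein coding genes named Ccl, Cxcl, Cx3cl1, Xcl1, Ccr, Ccrl2, Cxcr, Cx3cr1, Xcr1 and Ackr, and held 65 of the 50488 gene identifiers shared by all 4 count tables, 42 ligands and 23 receptors. The study asked how loss of Cbfb, which encodes the subunit Cbfβ that stabilises RUNX transcription factors on DNA, changes articular cartilage. The hip control library came from Cbfb f/f mice with no Cre and, by its label, no treatment, although the study's methods give oil or tamoxifen injections for such mice. The other hip library came from Cbfb f/f;Col2α1-CreERT mice that had received tamoxifen. Both knee libraries came from Cbfb f/f;Aggrecan-CreERT mice, given oil in the control and tamoxifen in the other. Cbfb was thus floxed in all 4 libraries, and each CreERT fusion was driven by a promoter of chondrocyte matrix genes and needed tamoxifen to act. The mice were 6 weeks old for the hip and 12 weeks old for the knee by the study's legends, although another passage makes the hip mice older. Strain and the number of mice per library are not given in the sources used here. The study states a general number of mice per group and experiment, without tying it to a library. Joint, Cre line, age and the kind of control differ together and cannot be told apart.

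Each library held between 34264456 and 38473120 counts on genes, so that 3 counts stood for 0.0780 to 0.0876 counts per 1000000 (CPM). Values of a pair are given below in the order control, then the library labelled Cbfb-deficient. Cbfb itself had 2548 and 2946 counts in the hip pair and 3796 and 4572 in the knee pair, with log2 ratios of 0.41 and -0.07, so its level did not go down in the hip pair and was nearly level in the knee. A count over the whole gene cannot separate deleted from undeleted exons or chondrocytes from other cells. The libraries are therefore named by their labels, and every direction below rests on those labels. The tissue held much besides cartilage. The 10 chondrocyte markers summed to 162.8 and 70.6 CPM in the hip and 4166 and 1982 CPM in the knee, whereas the 12 skeletal muscle markers summed to 171500 and 157500 CPM in the hip and 12690 and 26160 CPM in the knee. None of those markers was at 0 in any library.

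Chemokines are small secreted or membrane-bound proteins that guide leukocytes by binding receptors coupled to Gi proteins. The atypical receptors bind the same ligands without that signal and take them up. In joints, synovial cells, endothelium, marrow stroma and resident macrophages are known sources of ligands, and most receptors mark leukocytes.

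With 1 library per condition no test within a joint was possible. A gene was called higher or lower when the pair held at least 10 counts, the log2 ratio was at least 1 in size and the 95% interval of its counting error excluded 0. The interval says nothing of the spread between mice. In these bulk samples fewer cells of a type and less RNA per cell cannot be told apart.

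More family members were called lower than higher in the hip library labelled Cbfb-deficient, mostly genes of few counts. Of the 42 hip members that reached 10 counts, 15 were called lower and 6 higher, and 21 were not called. Among all 19856 genes of the hip pair 16.3% were called lower and 20.2% higher. The median log2 ratio was -0.774 over the 42 members and 0.014 over all genes. These values depend on the filter, since a member can pass it through 1 library alone. With at least 10 counts in each hip library, 6 members were called lower and 5 higher. Among all genes that passed, 9.50% were called lower and 20.6% higher. At most 26 members could pass, those with 10 or more counts in the hip library labelled Cbfb-deficient. The members' share called lower thus stayed above that of all genes. The median was 0.078 over the members that passed and 0.117 over all genes that passed. The knee pair was nearer to even, with 6 of 51 members called lower and 3 higher, beside 6.81% and 9.00% of 21131 genes. The knee median was -0.096 over the members and 0.019 over all genes. With the interval alone and no limit on the fold, 19 hip members lay below 0 and 9 above, beside 33.7% and 37.3% of genes, and 19 knee members lay below and 11 above, beside 29.7% and 31.9%. Scaling by library size alone lifted the median of all knee genes to 0.200 and turned the knee split to 4 lower and 5 higher, beside 4.96% and 12.3% of genes. With a log2 limit of 2, 6 hip members were called lower and 2 higher, beside 8.52% and 7.33% of genes, and 1 knee member each way, beside 2.67% and 2.82%.

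The remaining members were rare. In the hip 23 members were under 10 counts over the pair, in the knee 14, and 11 were under it in both. Ccl21b, Ccl21d, Ccl21f, Ccl26 and Cxcl15 had 0 counts in all 4 libraries, each of which allows a level of up to 0.0780 to 0.0876 CPM. Ccl1, Ccl20, Ccl21a, Ccl21e, Ccl27b and Ccr8 had from 0 to 4 counts in every library. The Ccl21 and Ccl27 genes of chromosome 4 are near-identical copies, so reads may be split among them or dropped, and their counts are uncertain. Exons of 20 members share bases with another annotated gene, 10 of them with a protein coding gene, and without a stated strand setting such reads cannot be assigned with certainty.

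**Figure D1:**
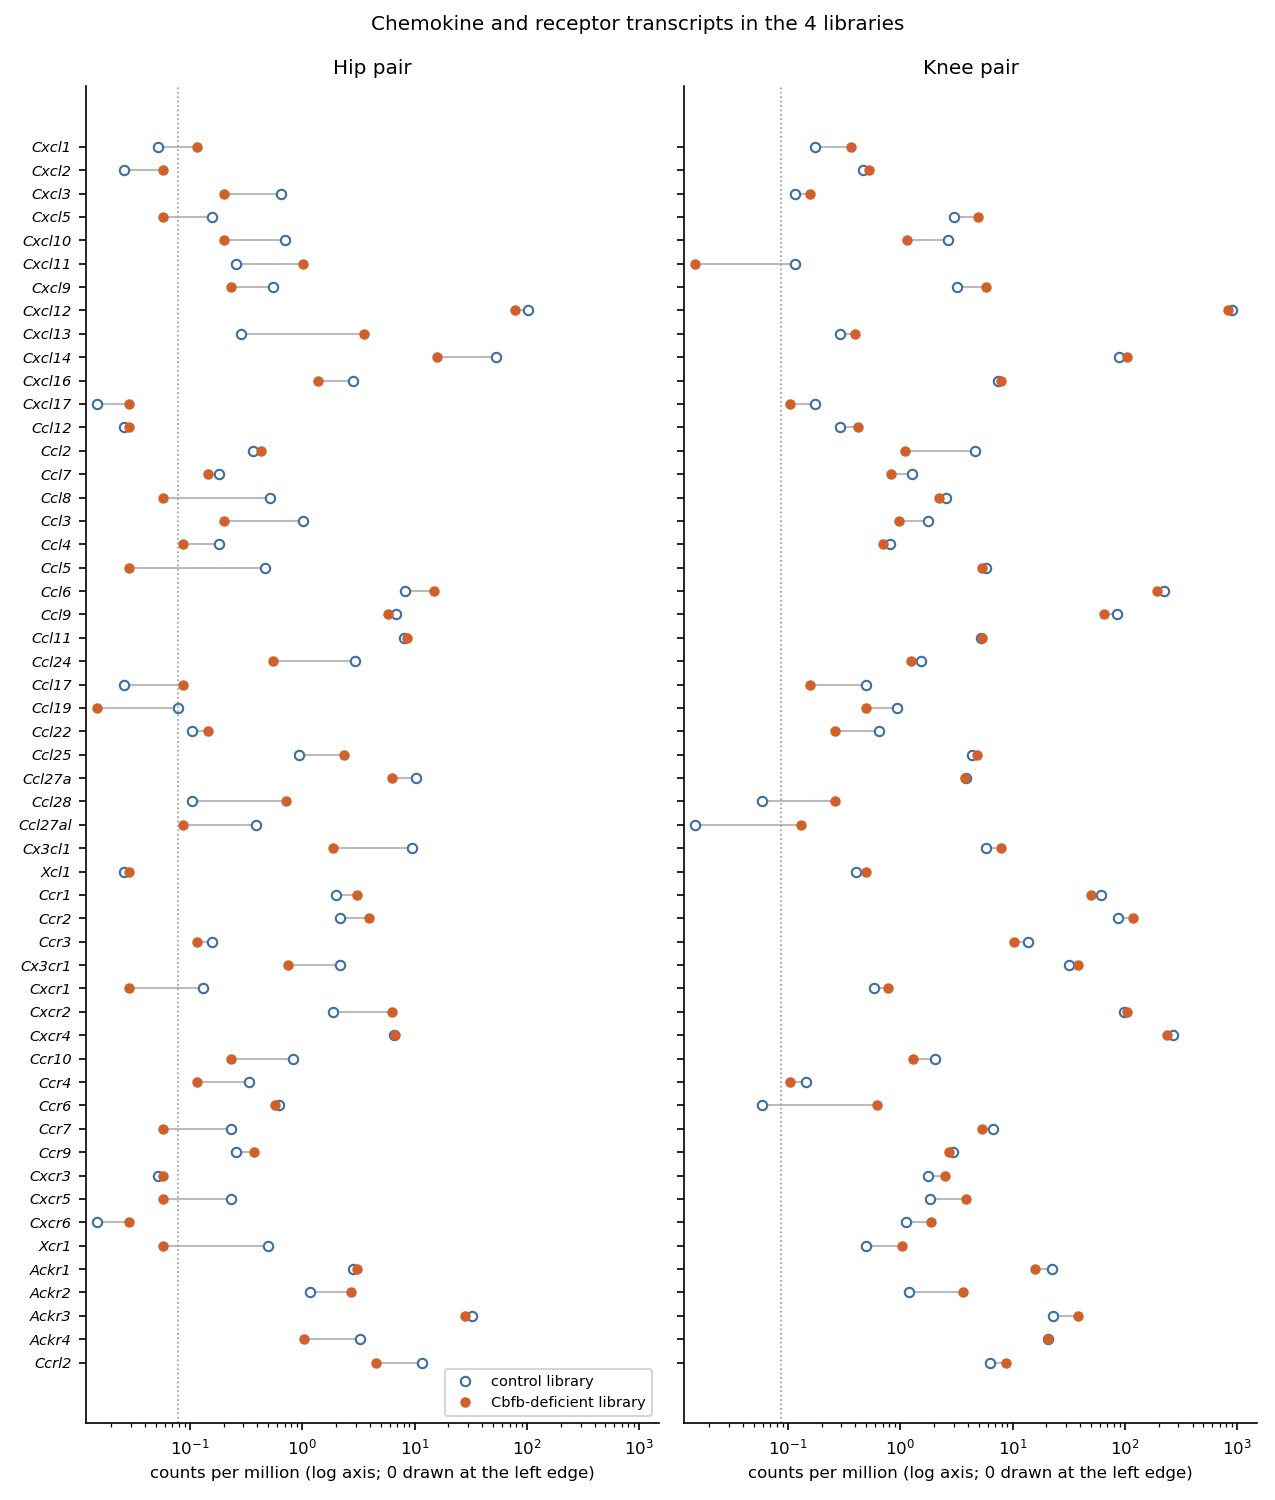
Counts per 1000000 counts on a log axis for 53 members with at least 10 counts over the hip or knee pair, with the control library as open circles, the library labelled Cbfb-deficient as filled circles and 3 counts as a dotted line. Long bars include those of Ccl5, Cxcl13, Ccl8, Xcr1, Ccl28, Ccl24 and Cx3cl1 in the hip, and of Ccl2 and Ccr6 in the knee.

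The level of the family differed between the tables of each joint. Summed over the 65 members it was 281.8 and 205.8 CPM in the hip and 2013 and 1920 CPM in the knee. Hip and knee reads were counted by different programs, as far as the files show, so these sums are set side by side only. Cxcl12 alone held 36.6% and 38.3% of all member counts of the hip libraries and 44.8% and 42.8% of those of the knee. Per kilobase of transcript, Cxcl12 led the family in 3 of the 4 libraries, at 13.9 CPM per kilobase in the hip library labelled Cbfb-deficient and 159 and 145 in the knee pair. In the hip control library Cxcl14 and Cxcl12 were level, at 18.2 CPM per kilobase each. Ccl6 and then Cxcr4 followed Cxcl12 in both knee libraries, at 155 and 134 and at 147 and 131 CPM per kilobase. Ccl27a, Ackr3 and Ccl11 held places 3 to 5 in the hip control library, at 11.2, 10.5 and 7.31 CPM per kilobase, and places 10 to 18 in the knee.

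Promoters are shown for 5 genes whose values carry the results below. Ackr2, Ccl3 and Cxcl10 were called in the same direction in both joints, the knee call of Ccl3 not under every setting, Cxcl14 was the called member with the most counts in the hip, and Cxcl13 had the largest hip ratio. The windows are RefSeq sequences of build GRCm38.p6 from 250 bases before to 50 bases after the start site, 5′ to 3′ on the gene's strand. Capitals mark matches on either strand to the RUNX motif TGTGGT, to the NF-kB motif (GGG, any 3 bases, TTCC) or to the interferon-response motif (GAAA, any 2 bases, GAAA), and matches were allowed to overlap.
Ackr2 (chr9:121898105-121898404, plus strand): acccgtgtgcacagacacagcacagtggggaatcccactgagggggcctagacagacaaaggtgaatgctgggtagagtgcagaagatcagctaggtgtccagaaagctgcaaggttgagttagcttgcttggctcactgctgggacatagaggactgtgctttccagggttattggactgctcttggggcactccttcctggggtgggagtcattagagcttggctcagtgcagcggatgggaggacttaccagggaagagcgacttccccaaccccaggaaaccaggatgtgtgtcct
Ccl3 (chr11:83649329-83649628, minus strand): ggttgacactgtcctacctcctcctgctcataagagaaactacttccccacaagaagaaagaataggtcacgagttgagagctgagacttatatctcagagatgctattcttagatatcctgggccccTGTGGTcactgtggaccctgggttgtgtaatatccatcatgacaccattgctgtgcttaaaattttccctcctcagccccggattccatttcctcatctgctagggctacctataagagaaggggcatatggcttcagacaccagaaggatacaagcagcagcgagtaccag
Cxcl10 (chr5:92348840-92349139, minus strand): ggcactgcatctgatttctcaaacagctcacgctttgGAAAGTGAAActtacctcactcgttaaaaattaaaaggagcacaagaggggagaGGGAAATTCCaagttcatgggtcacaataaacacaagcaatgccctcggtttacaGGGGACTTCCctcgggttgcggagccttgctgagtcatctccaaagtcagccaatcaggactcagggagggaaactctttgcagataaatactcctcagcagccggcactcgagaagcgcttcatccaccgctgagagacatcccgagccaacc
Cxcl14 (chr13:56296502-56296801, minus strand): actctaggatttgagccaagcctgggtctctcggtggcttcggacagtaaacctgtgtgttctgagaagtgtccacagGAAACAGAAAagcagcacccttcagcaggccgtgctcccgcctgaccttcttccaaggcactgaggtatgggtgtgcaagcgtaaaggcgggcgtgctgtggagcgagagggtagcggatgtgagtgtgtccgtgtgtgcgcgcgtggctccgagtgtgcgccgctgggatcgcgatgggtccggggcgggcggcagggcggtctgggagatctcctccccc
Cxcl13 (chr5:95956689-95956988, plus strand): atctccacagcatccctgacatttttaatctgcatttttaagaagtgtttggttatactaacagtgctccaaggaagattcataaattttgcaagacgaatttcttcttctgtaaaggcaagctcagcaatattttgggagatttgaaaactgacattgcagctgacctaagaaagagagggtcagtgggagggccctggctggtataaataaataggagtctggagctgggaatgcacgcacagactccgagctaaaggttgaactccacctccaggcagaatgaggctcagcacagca
The Ccl3 window held TGTGGT at -122. The Cxcl10 window held the NF-kB letters at -159 and -104 and the interferon-response letters at -213, and the Cxcl14 window held the interferon-response letters at -172. These letters were not in the Ackr2 and Cxcl13 windows. Of the 56 windows found for 47 of the 65 members, 12 (21.4%) held the RUNX letters, 9 (16.1%) the NF-kB letters and 3 (5.36%) the interferon-response letters, beside 16.8%, 5.56% and 3.44% of the 32851 windows of all genes. A match is a description of the letters and not a site.

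Cxcl14, a chemokine of resting epithelium and stroma, had the most counts among the members called lower in the hip. The gene (ENSMUSG00000021508, GRCm39 chr13:56436352-56444603) had 2044 and 550 counts in the hip pair, or 53.1 and 15.9 CPM. The second value was 3.24-fold lower, with a log2 ratio of -1.70 and a counting interval of -1.83 to -1.56. The knee pair had 3030 and 4014 counts, a log2 ratio of 0.07 (-0.00 to 0.13), and was not called. The 2 hip values are far apart beside the counting error and the 2 knee values are close.

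Cxcl12 (ENSMUSG00000061353, GRCm39 chr6:117144945-117158328), the ligand of CXCR4 that holds stem cells and leukocytes in marrow, was not called in either joint. It had 3963 and 2725 hip counts and 30909 and 31386 knee counts, with log2 ratios of -0.34 and -0.32. Cxcl13, the ligand of CXCR5 that draws B cells into follicles, had the largest ratio of the family. The gene (ENSMUSG00000023078, GRCm39 chr5:96104810-96108927) had 11 and 123 counts in the hip pair and was called higher, 12.3-fold, with a log2 ratio of 3.62 (2.79 to 4.72). In the knee it had 10 and 15 counts and was not called. The hip ratio thus rests on 11 counts in the control library. Once the trend with transcript length and GC content was taken out, it was 3.06 (2.23 to 4.16), still called. That was smaller in size than the hip value of Xcr1 without the trend, -3.64. The 7 B cell markers summed to 133.4 and 10.3 CPM in the hip with 6 of 7 called lower, and summed to 834.4 and 561.4 CPM in the knee with 2 of 7 called lower. None of them was at 0, and their part in the Cxcl13 value was not tested. Cxcr5, the receptor of CXCL13 on B cells, had 9 and 2 counts in the hip pair.

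Cxcl16, a membrane-bound ligand of CXCR6, had 108 and 48 counts in the hip, a log2 ratio of -0.96 that lay just inside the limit and passed it at -1.01 when libraries were scaled by size alone. It had 255 and 302 counts in the knee. On the opposite strand, 2213 of its exonic bases are shared with Med11, which had 181 and 73 hip counts. A further gene of that strand, Zmynd15, shares 2132 and had 12 and 11 hip counts. The part of Med11 in the Cxcl16 value was not tested. Cxcl17, a mucosal chemokine, had from 0 to 6 counts in the 4 libraries.

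The CXCR3 ligands did not move together. Cxcl10, an interferon-induced attractant of T cells (ENSMUSG00000034855, GRCm39 chr5:92494497-92496748), had 27 and 7 hip counts and 91 and 44 knee counts. It was called lower in both joints, 3.20-fold in the hip and 2.60-fold in the knee, at log2 ratios of -1.68 (-3.19 to -0.51) and -1.38 (-1.94 to -0.85). Cxcl11 had 10 and 35 counts in the hip, called higher at a log2 ratio of 1.96 (0.96 to 3.18), and 4 and 0 in the knee. Cxcl9, the third of them, had 21 and 8 hip counts and 110 and 224 knee counts, at log2 ratios of -1.14 and 0.68, and was not called. The 3 genes lie side by side on chromosome 5, and Cxcl10 and Cxcl11 overlap Art3 on the opposite strand, which had 6424 and 11510 hip counts and 597 and 1566 knee counts. Cxcl10 shares 133 exonic bases with Art3 and Cxcl11 shares none. Without a stated strand setting reads of Art3 cannot be told apart from reads of these genes where they overlap, and the part of Art3 in the Cxcl11 value was not tested.

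The ELR ligands, which call neutrophils through CXCR2, were scarce. Cxcl3 had 25 and 7 counts in the hip, called lower at a log2 ratio of -1.57 (-3.09 to -0.39), and 4 and 6 in the knee. Cxcl5 had 6 and 2 hip counts and 104 and 188 knee counts, where its log2 ratio was 0.51 (0.16 to 0.87), not called. Cxcl1 and Cxcl2 had from 1 to 20 counts and were not called. Summed, these 5 ligands stood at 0.884 and 0.434 CPM in the hip and 3.79 and 5.96 CPM in the knee.

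Among the CC ligands of monocytes the joints differed in which gene was called. Ccl2 (ENSMUSG00000035385, GRCm39 chr11:81926397-81928279), the main ligand of CCR2, had 14 and 15 hip counts and 159 and 42 knee counts. It was called lower in the knee alone, 4.75-fold, at a log2 ratio of -2.25 (-2.79 to -1.76), beside a hip value of 0.29 (-0.85 to 1.46). Ccl8, an attractant of monocytes and T cells, had 20 and 2 counts in the hip, called lower at a log2 ratio of -2.84 (-6.27 to -1.08), and 87 and 84 in the knee. Ccl7 had 7 and 5 hip counts and 44 and 32 knee counts, at log2 ratios of -0.25 and -0.79. Ccl12 had 1 and 1 hip counts and 10 and 16 knee counts. Neither of these was called.

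Of Ccl3, Ccl4 and Ccl5, inflammatory CC ligands of macrophages and T cells, 2 were called lower in the hip. Ccl3 (ENSMUSG00000000982, GRCm39 chr11:83538670-83540191), a product of activated macrophages, had 39 and 7 hip counts and 61 and 37 knee counts. It was called lower in both joints, at log2 ratios of -2.20 (-3.69 to -1.10) and -1.05 (-1.69 to -0.45). The knee call of Ccl3 was lost with library size alone, at -0.87, and once the trend with length and GC content was taken out, at -0.64. Ccl5, which T cells, NK cells and platelets make, had 18 and 1 counts in the hip, called lower at a log2 ratio of -3.43 (-9.35 to -1.31), and 201 and 204 in the knee, at -0.32, a value that turned to 0.10 without the same trend. Ccl4 had 7 and 3 hip counts and 28 and 27 knee counts and was not called.

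Ccl6 and Ccl9, the mouse CCR1 ligands of myeloid cells, had the highest levels per kilobase among CC ligands of the knee. Ccl6 had 316 and 511 hip counts and 7639 and 7371 knee counts, at log2 ratios of 0.89 (0.69 to 1.10) and -0.39 (-0.44 to -0.34). Ccl9 had 261 and 202 hip counts and 2892 and 2495 knee counts, at -0.17 and -0.55, and the hip value moved to -0.86 (-1.13 to -0.59) without the trend of length and GC content. Neither gene was called in either joint. Ccl11, an eosinophil attractant, had 313 and 297 hip counts and 180 and 205 knee counts. Its log2 ratios of 0.12 and -0.15 changed sign once the trend with length and GC content was taken out. Ccl24, which shares the receptor CCR3 with Ccl11, had 113 and 19 hip counts and 52 and 48 knee counts. It was called lower in the hip, 5.08-fold, at a log2 ratio of -2.34 (-3.16 to -1.67), beside -0.45 in the knee.

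The CC ligands of lymphocytes and mucosa split by gene and by joint. Ccl25, the thymic and gut ligand of CCR9, had 36 and 81 counts in the hip, called higher at a log2 ratio of 1.36 (0.78 to 1.98), and 149 and 184 in the knee, at -0.04. It shares 604 exonic bases with Elavl1 on the opposite strand, which had 956 and 744 counts in the hip. Ccl28, a mucosal ligand of CCR10, had 4 and 25 counts in the hip, called higher at a log2 ratio of 2.7 (1.31 to 4.82), and 2 and 10 in the knee, not called at 1.73 (-0.25 to 5.21). The hip ratio of Ccl28 fell to 1.73 (0.34 to 3.85), still called, once the trend with length and GC content was taken out. Ccl27a, the other ligand of CCR10, had 395 and 220 hip counts and 132 and 143 knee counts, at log2 ratios of -0.65 and -0.22. Its near copy Ccl27al had 15 and 3 counts in the hip, called lower at -1.95 (-4.55 to -0.30), a call lost without that trend, at -1.37 (-3.98 to 0.27), because the interval then reached past 0.

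In the knee, 3 ligands of this group were called lower. Ccl22, a ligand of CCR4, had 22 and 10 counts, a log2 ratio of -1.44 (-2.72 to -0.34). Ccl19, a ligand of CCR7, had 32 and 19 counts, at -1.08 (-1.99 to -0.23), a call lost with library size alone and, at -0.75, once the trend with length and GC content was taken out. Ccl17, the other ligand of CCR4, had 17 and 6 counts, at -1.77 (-3.47 to -0.43), a call lost without the trend, at -1.33 (-3.03 to 0.01), by the upper end of its interval alone. All 3 had from 0 to 5 counts in each hip library.

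Cx3cl1, or fractalkine, is made on endothelium and nerve as a membrane-bound ligand of CX3CR1. The gene (ENSMUSG00000031778, GRCm39 chr8:95498637-95509055) had 362 and 65 counts in the hip, or 9.41 and 1.88 CPM, and 199 and 304 in the knee. It was called lower in the hip, 4.83-fold, at a log2 ratio of -2.27 (-2.68 to -1.90), and stood at 0.27 (0.01 to 0.54) in the knee. The 7 endothelial markers summed to 306.8 and 272.8 CPM in the hip with 0 of 7 called in either direction, and to 281.6 and 443.5 CPM in the knee with 0 of 7 called. Xcl1, the ligand of XCR1, had 1 and 1 hip counts and 14 and 19 knee counts.

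**Figure D2:**
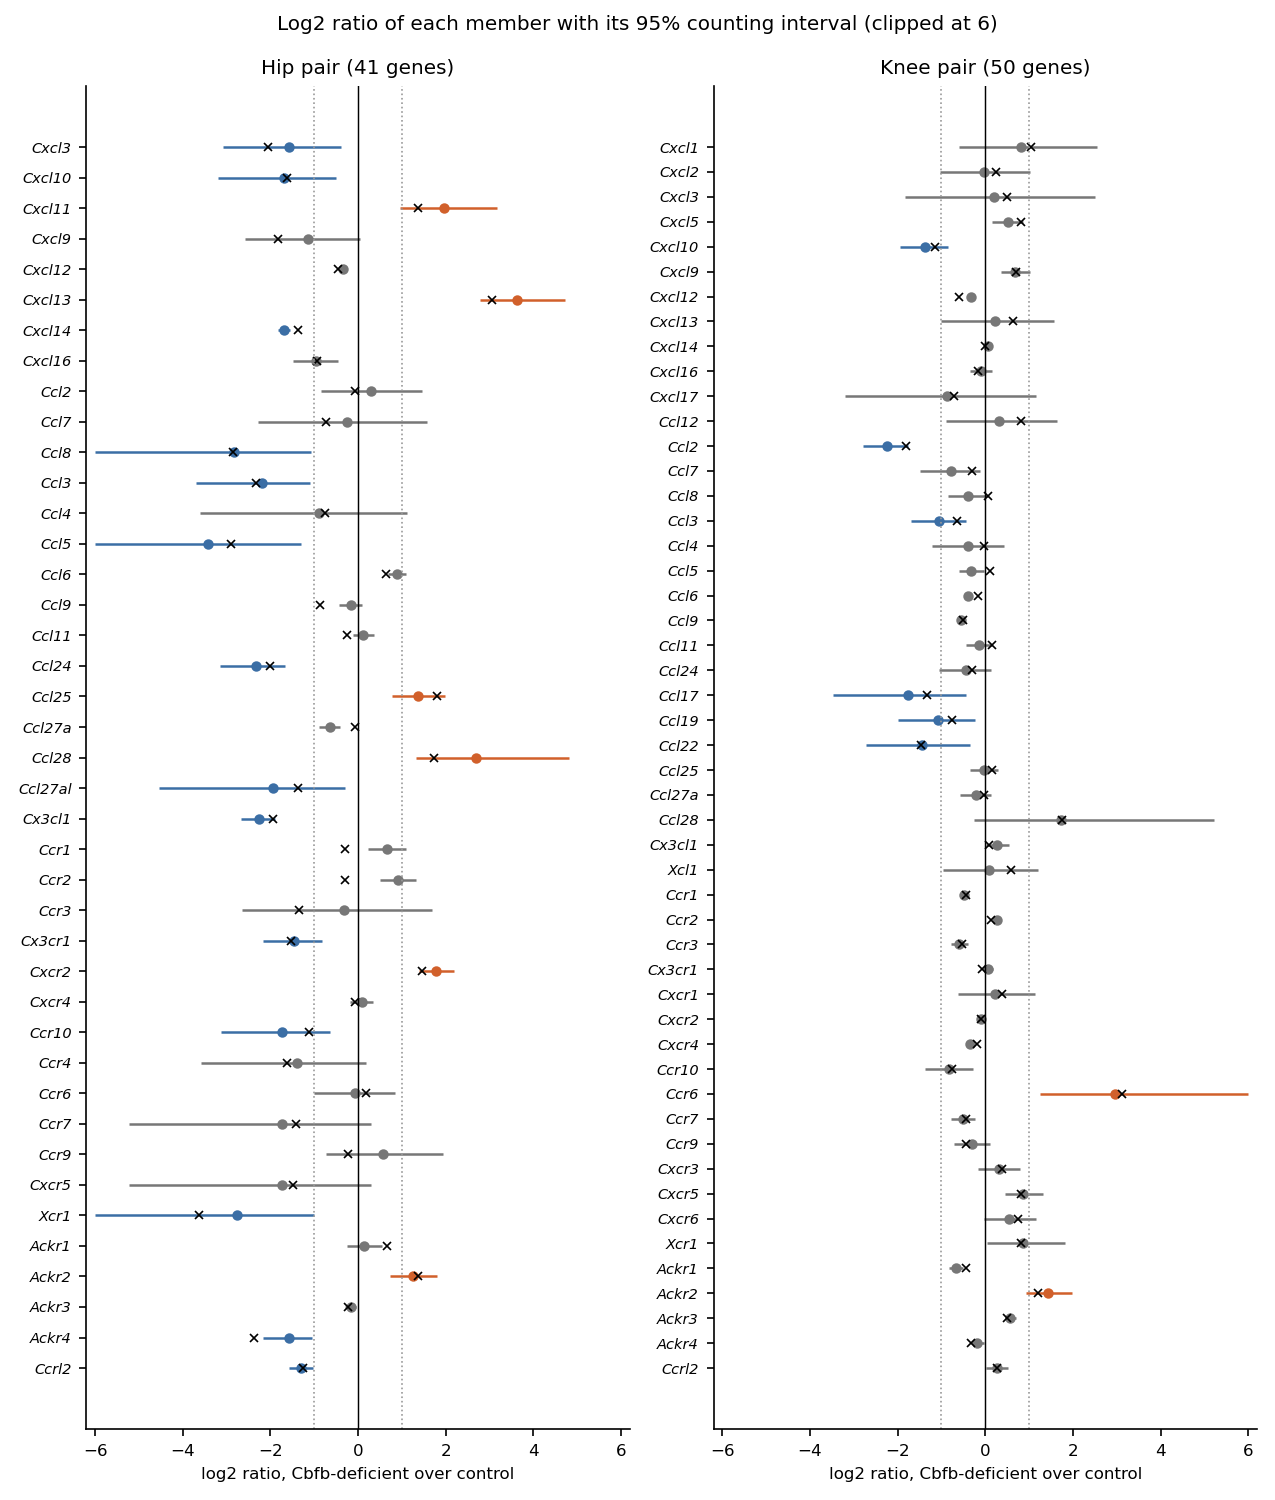
Log2 ratio of the library labelled Cbfb-deficient over the control library for 41 members of the hip pair and 50 of the knee pair, ordered by role, with 95% counting intervals as bars, called members in colour and crosses for the value once the trend with length and GC content was taken out. In the hip the points spread from -3.43 to 3.62 and in the knee from -2.25 to 2.95.

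The myeloid receptors did not share a direction in the hip. Cxcr2, the neutrophil receptor of the ELR ligands (ENSMUSG00000026180, GRCm39 chr1:74193150-74200405), had 72 and 216 hip counts and 3400 and 4028 knee counts. It was called higher in the hip, 3.43-fold, at a log2 ratio of 1.78 (1.39 to 2.19), and was nearly level in the knee, at -0.09 (-0.16 to -0.03). The 12 neutrophil markers summed to 486.3 and 584.1 CPM in the hip, where Mmp8, Csf3r and Retnlg were called higher and the other 9 were not called, and to 36790 and 30110 CPM in the knee, where Retnlg was called lower and the other 11 were not called. The 12 hip log2 ratios ran from -0.87 for Prtn3 to 1.88 for Mmp8, with 6 below 0. Without the trend of length and GC content, 3 were below 0, Lcn2 joined the higher calls at 1.25, and the knee call of Retnlg, at -1.04, was lost at -0.55. Cxcr1, the related receptor, had 5 and 1 hip counts and 20 and 30 knee counts. None of the 12 markers was at 0, and their part in the Cxcr2 value was not tested.

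Cx3cr1, the receptor of fractalkine on monocytes and resident macrophages, had 83 and 26 hip counts and 1097 and 1453 knee counts. It was called lower in the hip, at a log2 ratio of -1.46 (-2.17 to -0.83), beside 0.07 in the knee. Ligand and receptor of this pair were thus both called lower in the hip and neither was called in the knee. The 10 macrophage markers summed to 166.2 and 92.9 CPM in the hip with 5 called lower and 2 higher, and to 679.2 and 650.3 CPM in the knee with none called. Once the trend with length and GC content was taken out, 3 were called lower in the hip and none higher. Adgre1, the macrophage marker F4/80, had 210 and 48 hip counts, a log2 ratio of -1.92. None of these markers was at 0, and their part in the Cx3cr1 value was not tested.

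Ccr1, Ccr2 and Ccr3, the remaining myeloid receptors, and Cxcr4 were not called. Ccr2, the receptor that brings monocytes out of marrow, had 84 and 137 hip counts and 3001 and 4552 knee counts, at log2 ratios of 0.90 (0.50 to 1.31) and 0.26 (0.19 to 0.33). Ccr1 had 77 and 106 hip counts and 2120 and 1909 knee counts, at 0.66 and -0.49. Both hip values changed sign once the trend with length and GC content was taken out, to -0.29 each. Ccr3, the eosinophil receptor, had 6 and 4 hip counts and 474 and 398 knee counts, at -0.33 and -0.59, and its hip value moved to -1.36 (-3.68 to 0.66) without the trend. Cxcr4, the signalling receptor of CXCL12, had 251 and 231 hip counts and 9174 and 9130 knee counts, at log2 ratios of 0.08 (-0.19 to 0.34) and -0.35 (-0.39 to -0.30).

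Receptors of lymphocytes and dendritic cells were few in the hip and mostly uncalled. Ccr10, the receptor of CCL27 and CCL28, had 32 and 8 counts in the hip, called lower at a log2 ratio of -1.74 (-3.13 to -0.65), and 70 and 50 in the knee, at -0.82. Xcr1, which marks cross-presenting dendritic cells, had 19 and 2 counts in the hip, called lower at -2.77 (-6.2 to -1.0), and 17 and 40 in the knee, at 0.87 (0.04 to 1.81). The 6 dendritic cell markers summed to 8.97 and 9.69 CPM in the hip, with 2 called lower and 1 higher. The higher call was that of Clec9a, which marks the same dendritic cells as Xcr1 and had 9 and 30 counts.

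Ccr6, a receptor of B cells and Th17 cells, had 2 and 24 counts in the knee, called higher at a log2 ratio of 2.95 (1.24 to 6.37), and 24 and 20 in the hip, at -0.06. Cxcr5 had 63 and 146 counts in the knee, at 0.87 (0.44 to 1.32), which passed the limit at 1.05 with library size alone. Ccr7, which leads cells to lymph nodes, had 9 and 2 hip counts and 231 and 206 knee counts, at -1.73 (-5.22 to 0.30) and -0.50. Ccr9 had 10 and 13 hip counts and 102 and 104 knee counts. Cxcr3 and Cxcr6, receptors of effector T cells, had from 0 to 2 hip counts. In the knee Cxcr3 had 61 and 96 counts and Cxcr6 39 and 72. Ccr4 had 13 and 4 hip counts and 5 and 4 knee counts. None of these last 5 was called. The 10 markers of T and NK cells summed to 5.85 and 3.5 CPM in the hip, with 3 called lower and 1 higher of 6 tested, and to 77.8 and 73.0 CPM in the knee, with none called. Without the trend of length and GC content 2 of them, Cd3e and Cd4, were called lower in the hip and none higher.

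The atypical receptors held the member called higher in both joints. Ackr2 (ENSMUSG00000044534, GRCm39 chr9:121727421-121741249), which takes up inflammatory CC chemokines, had 45 and 94 hip counts and 41 and 140 knee counts. It was called higher in both, 2.38-fold and 2.68-fold, at log2 ratios of 1.25 (0.73 to 1.81) and 1.42 (0.92 to 1.97). Both calls held once the trend with length and GC content was taken out, at 1.36 and 1.21. These levels were 1.17 and 2.72 CPM in the hip and 1.2 and 3.66 CPM in the knee.

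Ackr4, which takes up CCL19, CCL21 and CCL25, had 125 and 36 counts in the hip, called lower at a log2 ratio of -1.58 (-2.18 to -1.05), and 711 and 791 in the knee, at -0.19. It shares 1663 exonic bases with Acad11 on the opposite strand, which had 1279 and 1050 counts in the hip. Ccrl2, which binds chemerin, had 449 and 158 counts in the hip, called lower at -1.31 (-1.58 to -1.04), and 218 and 332 in the knee, at 0.27 (0.02 to 0.52). Ackr3, the scavenger of CXCL12, had 1239 and 965 hip counts and 780 and 1461 knee counts, at -0.16 (-0.29 to -0.04) and 0.57 (0.44 to 0.69). Ackr1, the chemokine-binding protein of red cells and venules, had 110 and 106 hip counts and 762 and 608 knee counts, at 0.14 and -0.66, and shares 361 exonic bases with Cadm3 on its own strand. Neither Ackr3 nor Ackr1 was called.

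**Figure D3:**
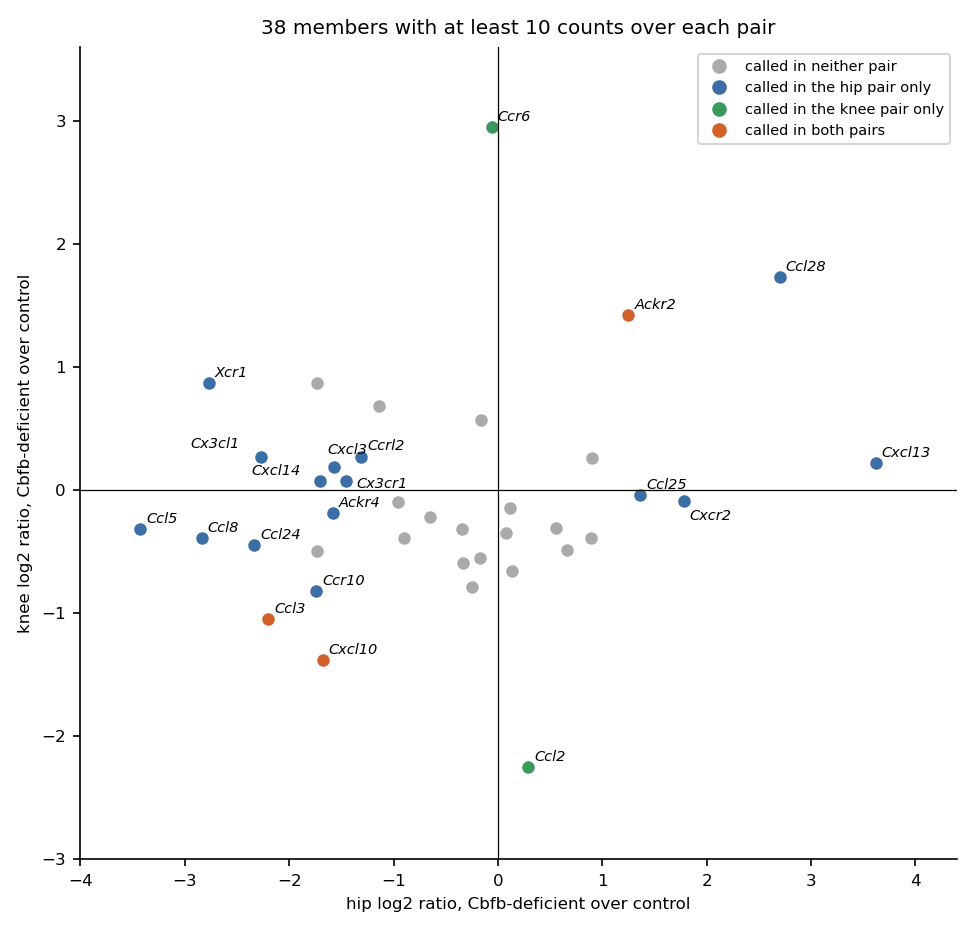
Hip log2 ratio on the horizontal axis and knee log2 ratio on the vertical axis, each the library labelled Cbfb-deficient over its control, for 38 members with at least 10 counts over each pair. Ackr2 lies at the upper right, Ccl3 and Cxcl10 at the lower left.

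Across the joints, 38 of the members described had at least 10 counts over each pair. Of these, 3 were called in the same direction in both joints, 15 in the hip alone, 2 in the knee alone and 18 in neither. Among the 17594 genes tested in both, 3.67% were called in the same direction in both, 28.4% in the hip alone, 7.47% in the knee alone and 58.6% in neither. The 3 were Ackr2, higher in both, and Ccl3 and Cxcl10, lower in both. With library size alone, and without the trend of length and GC content, the knee call of Ccl3 was lost and those of Ackr2 and Cxcl10 held. The sign of the log2 ratio was the same in both joints for 19 of these 38 members, beside 56.6% of all genes tested in both. With joint as the block, edgeR's quasi-likelihood test with Benjamini-Hochberg adjustment called 0 of 39 members and 0 of 17594 genes (0.00%). By the same edgeR test the unadjusted p was under 0.05 for 0 of the 39 members and 1044 of the 17594 genes. With so few members this does not set the family apart. The lowest adjusted p of a member was 0.817 by that edgeR test. The DESeq2 Wald test called 46 of the 14524 genes to which it gave an adjusted p (0.317%) and 0 members, with 0 members at an unadjusted p under 0.05. With library size alone edgeR called 0.0171% of 17594 genes, with the filterByExpr filter 0.0109% of 18388, and 0 members each. The edgeR fit with the block had 1 residual degree of freedom.

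In the gene clusters of chromosomes 8, 9 and 11, called and uncalled genes lay side by side. Of the 6 genes from Ccl2 to Ccl1 on chromosome 11, Ccl8 was called lower in the hip and Ccl2 in the knee. Of the 5 genes from Ccl5 to Ccl4, Ccl5 and Ccl3 were called lower in the hip while Ccl6 and Ccl9 between them were not. Cx3cl1 lies between Ccl22 and Ccl17 on chromosome 8, and was called lower in the hip, whereas its neighbours were under 10 counts in the hip and called lower in the knee. On chromosome 9, Xcr1 was called lower in the hip, whereas its neighbours Ccr1, Ccr3 and Ccr2 were not called.

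Many calls rested on few counts. Of the 15 members called lower in the hip, 9 had under 10 counts in the lower library, as had 1 of the 6 called higher. From 10 to under 100 counts over the hip pair, 9 of 21 members were called lower and 2 higher, beside 29.2% and 17.8% of all genes with such counts. From 100 to under 1000 counts, 5 of 18 were called lower and 4 higher, beside 11% and 24.5%. Of the 3 with at least 1000 counts, Cxcl12, Cxcl14 and Ackr3, Cxcl14 was called lower, beside 7.02% of such genes lower and 19% higher. From 10 to under 100 counts over the knee pair, 4 of 17 members were called lower and 1 higher, beside 14.8% and 14.1%. From 100 to under 1000 knee counts, 2 of 22 were called lower and 2 higher, beside 5.97% and 11.2%. None of the 12 knee members with at least 1000 counts was called, beside 1.31% of such genes lower and 3.76% higher.

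**Figure D4:**
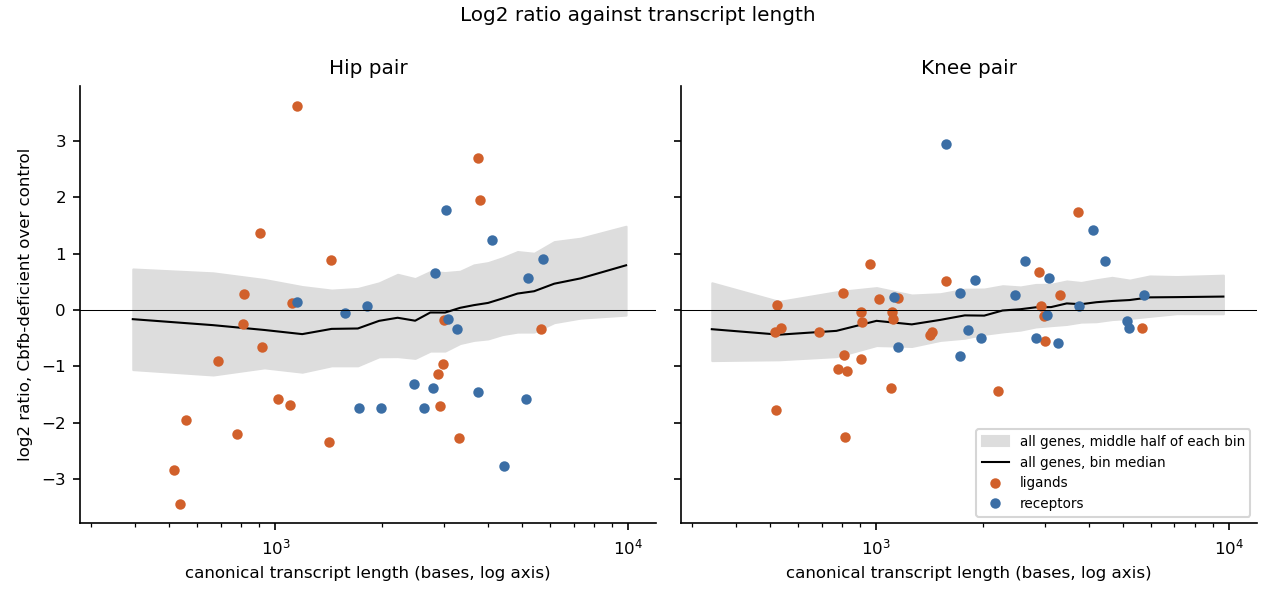
Log2 ratio of each ligand and receptor against the length of its canonical transcript on a log axis, with the bin median of all genes as a line and the interquartile range as a band. The line climbs with length in both joints, from -0.309 to 0.533 in the hip and from -0.339 to 0.219 in the knee between the shortest and longest of 5 groups, and the members' medians were -0.774 and -0.096.

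The ratios of all genes also varied with transcript length, and chemokine transcripts are short. The median length was 904 bases for the ligands and 2805 bases for the receptors. With all genes cut into 5 equal groups by length, the median log2 ratio was -0.309 in the shortest and 0.533 in the longest group of the hip, and -0.339 and 0.219 in the knee. With the trend of length and GC content removed, the members' median was -0.895 in the hip and -0.005 in the knee. In the hip 14 of the 15 lower calls and all 6 higher calls held, where 15.5% and 13.6% of all genes were then called lower and higher, and Cxcl9 and Ccr4 joined the lower calls, at -1.83 and -1.63. Of the other called hip values, Cxcl11 moved from 1.96 to 1.37 and Ccr10 from -1.74 to -1.12, whereas Ackr4 moved away from 0, from -1.58 to -2.37, and Xcr1 from -2.77 to -3.64. In the knee, where 5.29% and 9.28% of genes were then called lower and higher, 3 of 6 lower calls held, those of Ccl2, Ccl22 and Cxcl10, and Ackr2 and Ccr6 kept their higher calls. Some values that were not called turned sign as well, those of Ccl2, Ccr6, Ccr9 and Cxcr4 in the hip and of Ccl8, Ccl25, Cxcl2 and Cx3cr1 in the knee. The ligands' knee median moved from -0.271 to -0.020.

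The genes that carry or evoke chemokine signals were read beside the family. Of 40 genes of receptor signal transduction, 7 (17.5%) were called higher and 2 (5.00%) lower in the hip, beside 20.2% and 16.3% of all genes. None was called in the knee, beside 9.00% of all genes higher and 6.81% lower. Gng2, a G protein gamma subunit, had 118 and 751 counts in the hip, a log2 ratio of 2.86 that fell to 2.19 without the trend of length and GC content. Gnai3, an inhibitory alpha subunit, had 246 and 800, at 1.90, and its call was lost without that trend, at 0.95. Jak2, a kinase of cytokine receptors, had 594 and 1430 hip counts, at 1.46. Of 19 inducers of chemokine transcription, 15 were tested in the hip, with 4 (26.7%) called higher and 1 (6.67%) lower, and 17 in the knee, with 2 (11.8%) higher and 1 (5.88%) lower, to be read against the same shares of all genes. Without the trend, 5 signal transduction genes were called higher and 1 lower in the hip and 1 lower in the knee, and the inducers lost the lower knee call. Nfkbiz, a cofactor of NF-kB, had 95 and 256 hip counts, at 1.62, and Il1b had 287 and 967 knee counts, at 1.41.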

How the data were processed

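Poly(A)-selected RNA of mouse articular cartilage was sequenced by the authors in 4 libraries, a control library and one labelled Cbfb-deficient from the hip and from the knee. The deposited files held raw counts of reads per gene, with no normalization. The submitters' processing notes name STAR 2.0, FastQC 0.11.3 and mm10, whereas the study's methods name another STAR release and the build GRCm39. The names of the files point to HTSeq for the hip and to another counting program for the knee, and the strand setting is not given in the sources used here. Summary lines that name no gene held 25.8% and 24.6% of the counts in the hip files and were left out of all totals. The knee files had no such lines and listed other gene identifiers, so each pair was analysed within its own joint.

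Chemokine and receptor genes were chosen by symbol among protein coding genes of the GENCODE mouse annotation on GRCm39. They and the gene lists were chosen with earlier results of these data known. Counts per 1000000 counts on genes (CPM) gave the levels. Log2 ratios of the library labelled Cbfb-deficient over the control library were computed from TMM-normalized counts (edgeR 4.0.16, R 4.3.3) with 0.5 added, for genes with at least 10 counts over the pair. Each has a 95% Clopper-Pearson interval for counting error, and a call needed an interval excluding 0 and a log2 ratio of 1 or more in size. With 1 library per condition there is no replicate error and no test within a joint. Across joints, edgeR's quasi-likelihood test with the joint as a block and Benjamini-Hochberg adjustment over all genes left 1 residual degree of freedom. DESeq2 1.42.0 size factors, library size alone, other filters and call rules, and removal of the trend with transcript length and GC content (20 bins of each, 2 rounds) were tried as alternatives. Scripts ran in Python 3.11.15 and were tested on simulated data. Counts over the family include 1 gene that is not reported here, and every other gene of it is named. The rule fixed for members gives counts where the higher library of a pair holds 100 or more, or 20 or more for a called gene, and counts of other members were added after their values were seen. Of each other list, the rule names up to 3 called genes with the largest ratios and 100 or more counts in 1 library, beside genes that define a cell type.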

Additional observations from a re-analysis of the deposited data

Results flagged for a closer look

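For 7 of the 38 members compared across joints, the counting intervals of the hip and knee log2 ratios lay on opposite sides of 0. The library labelled Cbfb-deficient thus stood below its control in 1 joint and above it in the other. The share of all genes with such opposite intervals was not counted. Intervals lay above and below 0 for 37.3% and 33.7% of all hip genes and 31.9% and 29.7% of all knee genes. Only 56.6% of genes tested in both joints had the same sign, so opposite signs were not particular to these members. With 1 library per condition the difference between joints was not tested, and joint, Cre line, age and the kind of control differ together. The hip log2 ratio minus the knee log2 ratio was -3.64 for Xcr1, the receptor of cross-presenting dendritic cells, -2.54 for Cx3cl1 and -1.57 for Ccrl2. Once the trend with length and GC content was taken out, the knee intervals of Xcr1 (-0.02 to 1.74) and Cx3cl1 (-0.17 to 0.36) spanned 0, so these 2 genes no longer lay on opposite sides, and that of Ccrl2 began at 0.01. It was 1.87 for Cxcr2, the neutrophil receptor, whose knee interval ended at -0.03 and whose knee ratio moved to 0.09 with library size alone. Each of these 4 was called in the hip and not in the knee. The difference was 1.28 for Ccl6, 1.15 for Ccr1 and -0.73 for Ackr3, none of which was called in either joint, and the hip interval of Ccr1 spanned 0 without the same trend, at -0.72 to 0.16.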

How the results depend on the processing

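With 1 library per condition no replicate could be left out, and the labels pair libraries by joint alone. Without that block, as with it, edgeR called 0 members, as did DESeq2, library size alone and the filterByExpr filter. In the hip, the median log2 ratio of the members was -0.343 with no filter beyond 1 count. It was 0.078 with at least 10 counts in each library, which left 6 members called lower, beside 9.50% of genes. It was -0.895 once the trend with length and GC content was taken out. A log2 limit of 2 left 2 higher and 6 lower hip members, beside 7.33% and 8.52% of genes. It left 1 of each in the knee, beside 2.82% and 2.67%. In the knee, the interval alone with no fold limit gave 11 higher and 19 lower, beside 31.9% and 29.7% of genes. Library size alone gave 5 higher there, beside 12.3% of genes, and a median of 0.086. Removal of that trend left 3 lower in the knee, beside 5.29%. Beyond what the filters and limits remove by construction, the cause was not tested. DESeq2 size factors, TMM without mitochondrial, muscle and erythroid genes and an added count of 1 changed no call of the 29 hip and 33 knee genes followed singly. Genes at under 10 counts are limited by depth.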

Other observations

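Pf4 and Ppbp, the CXC chemokines of platelet alpha granules, carry symbols outside the naming rule and were read beside the family. Pf4 had 579 and 190 counts in the hip pair and 9804 and 11092 in the knee pair, in the order control and labelled Cbfb-deficient. Ppbp had 319 and 106 hip counts and 11290 and 24361 knee counts. Both were called lower in the hip, at log2 ratios of -1.41 and -1.39, and neither was called in the knee, at -0.16 and 0.77. Without the trend of length and GC content the knee value of Ppbp was 1.15 (1.11 to 1.18), called higher, and that of Pf4 turned to 0.16. The 6 platelet and megakaryocyte markers summed to 21.5 and 9.40 CPM in the hip, where 5 of the 6 were called lower, and to 511 and 692 CPM in the knee, where none was called. Without the trend 4 of the 6 were called lower in the hip. Their part in the values of Pf4 and Ppbp was not tested.

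Stromal genes that mark the main source of CXCL12 in marrow were also read. The 5 markers of marrow stromal cells summed to 35.8 and 65.0 CPM in the hip and to 290.1 and 275.3 CPM in the knee. In the hip 2 of the 5 were called higher, Kitl and Ebf3, and none lower, and in the knee none was called. Kitl, the ligand of the receptor KIT, had 183 and 834 hip counts (log2 ratio 2.38) and 1042 and 1564 knee counts (log2 ratio 0.25). Without the trend of length and GC content its hip ratio was 1.2 and that of Ebf3 was 0.86, no longer called. Lepr, Vcam1 and Foxc1 were not called, at hip log2 ratios of 0.73, 0.62 and -0.27. Cxcl12 itself was not called in either joint.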
